A study of Homo sapiens with 15 samples.

Results

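BCR-ABL1 is the fusion kinase that defines chronic myeloid leukemia, and the transcripts of its 2 parent genes were followed here together with those of its closest signalling partners in K562 cells. The 10 genes were BCR, ABL1, ABL2, CRKL, CRK, GAB2, GRB2, SHC1, STAT5A and STAT5B, chosen by symbol. All of them were listed in both deposited tables, 10 of 17769 genes in the knockout table and 10 of 60510 in the resistance table. All 10 passed the filter on low values in both.

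The study asked what the 2 cytosolic HSP90 isoforms do in BCR-ABL1+ leukemia, and how cells become resistant to the HSP90 inhibitor PU-H71. K562 is an established chronic myeloid leukemia line with erythroid features that carries several copies of the fusion gene. The knockout table holds 3 libraries each of empty vector control cells (EV, labelled WT and untreated), HSP90α-KO cells and HSP90β-KO cells. Cas9 and a guide RNA were delivered by lentivirus, cells were selected on a fluorescent marker, and the study labels its K562 knockout lines as clones. The resistance table holds 3 libraries of parental cells kept long term in the solvent DMSO and 3 libraries of cells made resistant to PU-H71 (PUHr). The genotype of both is labelled WT. The study nevertheless reports a missense variant and a copy number gain of HSP90AA1, the gene of HSP90α, acquired in PUHr cells. These cells were taken through rising doses and repeated clonal selection. The labels do not say which clone was sequenced, how many clones stand behind a group, or whether the replicates were separate cultures. The study calls the replicates independent without saying whether cultures, clones or RNA preparations were repeated. The p-values below therefore measure the spread between these samples, which may be technical in part, and an effect of a knockout or of resistance cannot be told apart from the history of a clone.

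The translocation between chromosomes 9 and 22 joins the front of BCR to most of ABL1, which leaves the kinase permanently active. A tyrosine of the BCR portion recruits the adaptor GRB2, GRB2 brings in the scaffold GAB2, and this complex feeds the RAS-ERK and PI3K pathways. SHC1 is a further adaptor that couples to GRB2. CRKL and its paralog CRK bind proline-rich stretches of ABL1, and CRKL is the substrate whose phosphorylation is most used as a readout of kinase activity in this leukemia. STAT5A and STAT5B are the transcription factors through which the kinase maintains survival genes. ABL2 is the paralog of ABL1. The fusion protein is a client of HSP90, which keeps it folded. The libraries measure transcript levels and do not show protein amount or phosphorylation. The study examined protein separately by blot, mass spectrometry and immunofluorescence imaging. By blot it reports relatively higher phosphorylation of BCR-ABL1, CRKL and STAT5A in HSP90α-KO cells than in controls.

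The sequences at the centre of the design are the exon ends that the fusion brings together and the guides that cut the 2 HSP90 genes. K562 is known to join exon 14 of BCR to exon 2 of ABL1. The last 30 bases of that BCR exon and the first 30 of that ABL1 exon are shown because every fusion transcript crosses from the first into the second, and because a read count per gene cannot show it: the fusion is counted on BCR before this point and on ABL1 after it. Both are reference sequence (GRCh38, plus strand, coding), not read from the libraries, at chr22:23290384-23290413 and chr9:130854064-130854093.
BCR exon 14, last bases: actcagccactggatttaagcagagttcaa
ABL1 exon 2, first bases: aagcccttcagcggccagtagcatctgact
The guides below are those of the study. Each matches coding exon 2 of its target on the minus strand, at chr14:102086342-102086361 for HSP90AA1, which encodes HSP90α, and at chr6:44248749-44248768 for HSP90AB1, which encodes HSP90β. The capitals mark the PAM next to the guide in the genome.
HSP90AA1: gacccaagaccaaccgatggAGG
HSP90AB1: cattagagatcaactcccgaAGG

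Each library held between 19594400 and 26216700 reads on genes, and 1 read was worth 0.0381 to 0.0518 CPM, the scaled read count of the tables. All 10 genes but CRK were counted on at least 1281 reads in every library, and CRK on 87 to 143. In the HSP90α-KO cells HSP90AA1 fell from 704 ± 18.7 CPM in EV to 90.5 ± 2.34 CPM (SD, n = 3 each; adjusted p = 2.64e-30, limma). In the HSP90β-KO cells HSP90AB1 fell less, from 2806 ± 21.1 to 1913 ± 25.1 CPM (adjusted p = 1.34e-15, limma), and HSP90AA1 rose to 1206 ± 14.2 CPM. In PUHr cells HSP90AA1 was at 1568 ± 21.0 CPM, against 1712 ± 14.1 CPM in parental cells (adjusted p = 4.71e-05, limma), and HSP90AB1 at 3847 ± 98.1 against 4531 ± 42.0 CPM (adjusted p = 1.91e-07, limma). By blot after re-treatment with PU-H71, the study reports strongly raised HSP90α protein in PUHr cells, which these transcript levels do not measure. The 8 markers of the K562 lineage fixed for this check, among them GATA1, TAL1 and KLF1, were detected in every library. MPO, ELANE and MS4A1, which mark granulocytes and B cells, had no read in the resistance table and were not listed in the knockout table, whereas LYZ, EPCAM and KRT8 were detected throughout. In bulk RNA, fewer cells of a type and less RNA per cell cannot be told apart.

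Compared per kilobase of exon, CRKL was the most abundant of the 10 transcripts in both control groups and CRK the least. In EV cells the CRKL level was 94.6 CPM per kb and that of CRK 1.15 CPM per kb (length of all annotated exons, GENCODE). ABL1 was at 44.5, GAB2 at 40.3, GRB2 at 39.0, STAT5A at 38.5, STAT5B at 29.7, SHC1 at 15.6, BCR at 11.0 and ABL2 at 4.79 CPM per kb. The middle of this order depended on the length taken. With the length of the main transcript alone, STAT5B (70.7) and STAT5A (65.2) stood above GRB2 (56.2) and ABL1 (55.7) in EV, while CRKL, ABL2 and CRK kept their places. The libraries of GRB2 and ABL1 overlapped on that scale, and on the first those of GRB2 overlapped with both GAB2 and STAT5A. In parental cells CRKL was at 128 CPM per kb by all exons, followed by STAT5A (68.7), ABL1 (54.4), GRB2 (43.2), STAT5B (23.8), SHC1 (19.9), GAB2 (18.5), BCR (13.2), ABL2 (5.93) and CRK (1.23).

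None of the 10 genes changed by more than 2-fold in any comparison, as the plot of levels by library shows. HSP90α loss came with more GRB2 and GAB2 transcript and less STAT5B, HSP90β loss with less CRKL, and PUHr cells had more CRKL and GAB2 and less SHC1 and GRB2. The largest absolute log2 fold change among them was 0.28 for HSP90α-KO, 0.19 for HSP90β-KO and 0.38 for PUHr. Their median absolute log2 fold change lay below that of all tested genes each time: 0.12 against 0.24 in HSP90α-KO, 0.08 against 0.15 in HSP90β-KO and 0.09 against 0.21 in PUHr.

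**Figure D1:**
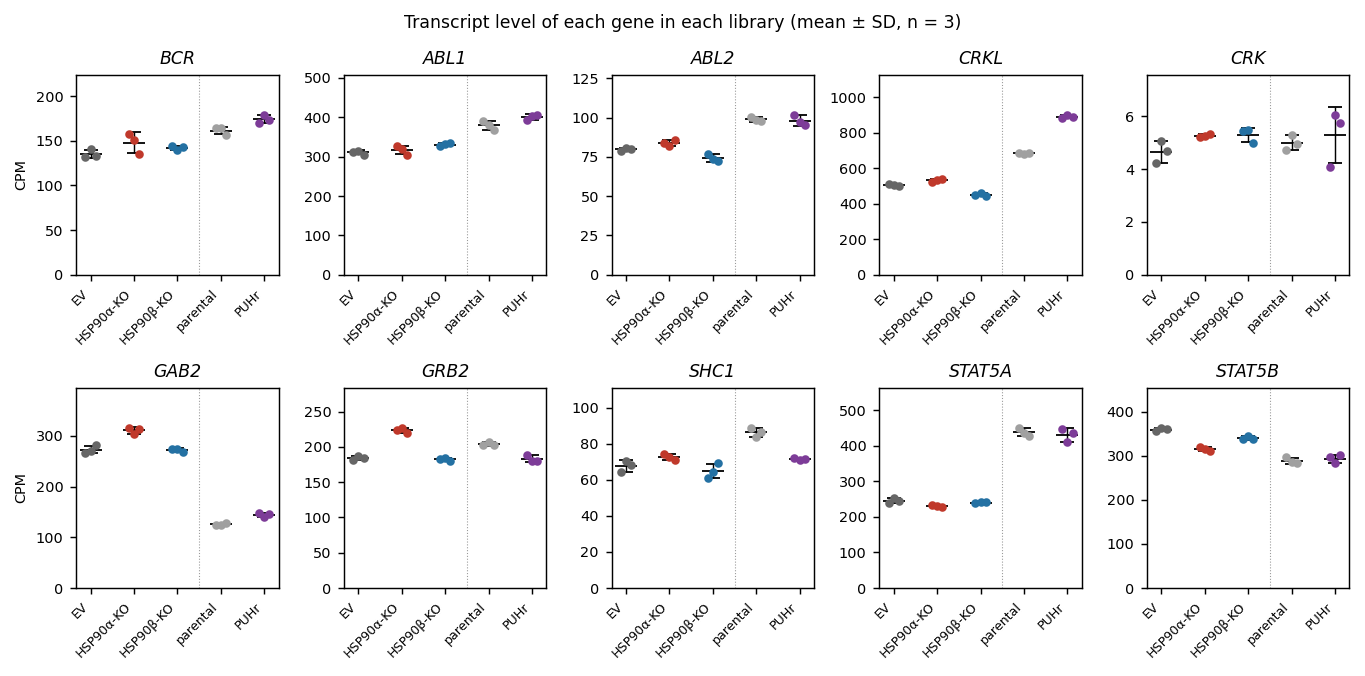
Level of each of the 10 genes in CPM (vertical axes, linear, starting at 0) in every library of the 5 groups, with the mean and SD of 3 libraries as bars; the dotted line separates the 2 tables, which were normalized separately. CRKL stands at 884 to 904 CPM in PUHr cells and at 682 to 688 CPM in parental cells, and CRK stays near 5 CPM in all groups.

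In the comparison of HSP90α-KO with EV, 6 of the 10 genes passed the test (adjusted p under 0.05, limma), 4 higher and 2 lower. Of all tested genes 54.2% did so, 27.5% higher and 26.6% lower, so the share is near the background. None reached an absolute log2 fold change above 1 as well, which 10.3% of all tested genes did. The libraries of the groups did not overlap for 8 of the 10 genes, against 57.3% of all genes. In the plot of fold changes the intervals of 3 genes stay far from 0.

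**Figure D2:**
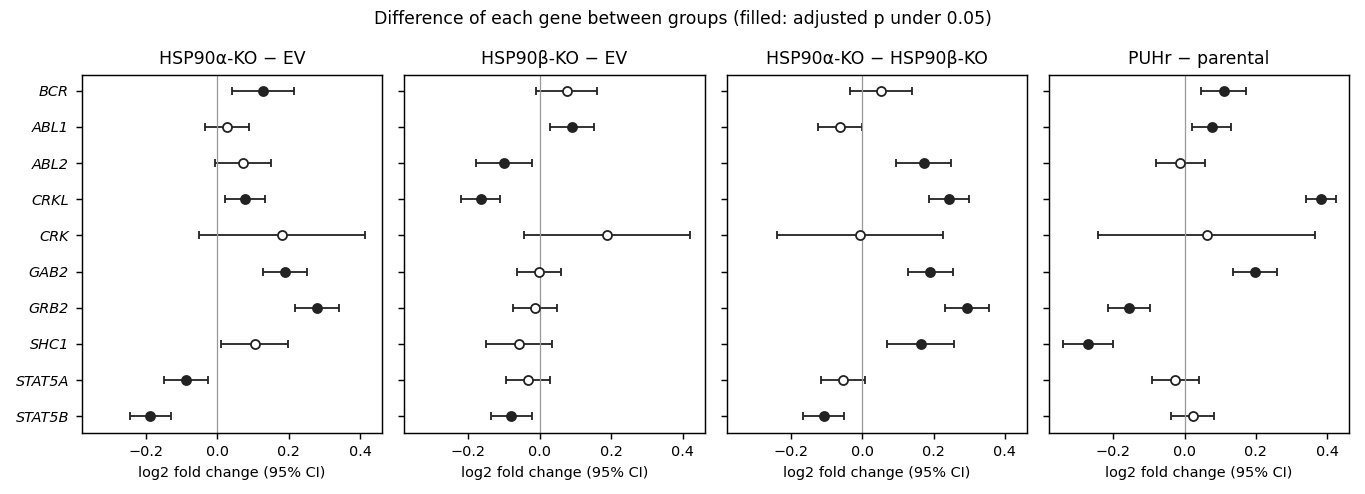
Log2 fold change of each gene (points) with its 95% confidence interval (bars) in 4 comparisons, from limma; filled points passed at an adjusted p under 0.05. The scale ends near 0.4, and the widest intervals are those of CRK, which was counted on about 100 reads.

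Of the fusion's parent genes, BCR, which supplies the promoter and the oligomerization domain of the fusion, was measured at 131, 141 and 133 CPM in the EV libraries and at 158, 150.3 and 135 CPM in the HSP90α-KO libraries. The third HSP90α-KO library lay within the range of EV, so the groups overlapped. The log2 fold change was 0.13 ± 0.04 (SE; adjusted p = 0.0124, limma). The call was lost without EV replicate 1 or 3 or HSP90α-KO replicate 1 or 2, with log2 fold changes of 0.08 to 0.12 (adjusted p = 0.0531 to 0.107, limma), and under quantile normalization. It was also lost without the trend in the variance (adjusted p = 0.118, limma). Of the stretches of read length in the main BCR transcript, 13.2% also occur in BCR pseudogenes or other annotated genes, so part of its reads could be counted elsewhere. ABL1, the kinase portion, was at 312, 315 and 305 CPM in EV and at 326, 319.8 and 305 CPM in HSP90α-KO. These ranges overlapped, and the log2 fold change of 0.03 had a 95% confidence interval of -0.03 to 0.09 (adjusted p = 0.459, limma). ABL2 was at 79.8 ± 1.12 CPM in EV and at 83.9 ± 2.12 CPM in HSP90α-KO (log2 fold change 0.07, adjusted p = 0.112, limma).

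Among the adaptors GRB2, the link to SOS and RAS, moved the most. It was at 181, 187 and 184 CPM in EV and at 224, 227 and 219.5 CPM in HSP90α-KO, with every knockout library above every EV library. The fold was 1.21 (log2 fold change 0.28 ± 0.03 SE, adjusted p = 1.04e-08, limma). By size alone this was an ordinary difference, larger than that of 55.4% of tested genes. GAB2, the scaffold that GRB2 recruits, was at 266, 271 and 281 CPM in EV and at 316, 303 and 314 CPM in HSP90α-KO, again without overlap (log2 fold change 0.19 ± 0.03, adjusted p = 7.1e-06, limma). SHC1 was at 67.6 ± 3.20 and 72.6 ± 1.74 CPM and missed the threshold (log2 fold change 0.10, adjusted p = 0.0538, limma), which it passed in 6 of the 23 settings run. Some of its counts are uncertain, because 7.72% of its exon length overlaps PYGO2 on the same strand.

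CRKL was at 509, 507 and 499.8 CPM in EV and at 525, 535 and 539 CPM in HSP90α-KO. The groups did not overlap, but the difference was small (log2 fold change 0.08 ± 0.03, adjusted p = 0.0177, limma). It was -0.0060 under quantile normalization. The call was lost without EV replicate 3 (adjusted p = 0.0779, limma) and without the trend in the variance (adjusted p = 0.0789, limma). CRK was read only 87 to 126 times per library in the knockout table, at 4.66 ± 0.42 CPM in EV and 5.27 ± 0.06 CPM in HSP90α-KO. The interval of its log2 fold change ran from -0.05 to 0.41 (adjusted p = 0.181, limma).

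Both STAT5 genes were lower in HSP90α-KO. STAT5B was at 355, 363 and 359 CPM in EV and at 319.8, 316 and 310.5 CPM in HSP90α-KO, without overlap. It fell by 0.19 on the log2 scale (SE 0.03, adjusted p = 2.11e-06, limma). STAT5A was at 238, 253 and 246 CPM in EV and at 234, 231 and 229 CPM in HSP90α-KO, close to each other but not overlapping (log2 fold change -0.09 ± 0.03, adjusted p = 0.0166, limma). Its call was lost without EV replicate 2 (adjusted p = 0.085, limma) and without the trend in the variance (adjusted p = 0.0725, limma). The 2 genes lie head to head on chromosome 17 and overlap over 1087 bases, chr17:42287547-42288633, on opposite strands. Of the stretches of read length in their main transcripts, 11.3% of STAT5A and 8.37% of STAT5B occur in both. Whether the counting used the strand is not given in the sources used here, so a part of their reads may have been shared or left out.

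In HSP90β-KO against EV, 4 of the 10 genes passed, 1 higher and 3 lower, while 34.4% of all tested genes did, 17.2% in each direction. None changed by more than 2-fold, against 4.48% of all genes, and 4 did not overlap between groups, against 46.6% of all. CRKL was the 1 gene that passed under every setting tried. It was at 449, 459 and 443 CPM in HSP90β-KO, below all EV libraries, and fell by 0.17 on the log2 scale (SE 0.03, adjusted p = 1.79e-05, limma), more than 52.6% of all tested genes moved.

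The other 3 calls in HSP90β-KO were weak. ABL1 was at 327, 331 and 334 CPM, above all EV libraries (log2 fold change 0.09 ± 0.03, adjusted p = 0.0197, limma). ABL2 was at 77.1, 73.9 and 72.5 CPM, below all EV libraries (log2 fold change -0.10 ± 0.04, adjusted p = 0.0409, limma). STAT5B was at 337, 345 and 338 CPM, also below EV (log2 fold change -0.08 ± 0.03, adjusted p = 0.0268, limma). The call of ABL1 was lost without EV replicate 3 or HSP90β-KO replicate 2 or 3, that of ABL2 without EV replicate 2 or 3 or HSP90β-KO replicate 2 or 3, and that of STAT5B without EV replicate 2 or 3 or HSP90β-KO replicate 1 or 3, with adjusted p between 0.0649 and 0.177 (limma). Median centring took ABL1 to 0.049 (adjusted p = 0.232, limma), and quantile normalization took STAT5B to -0.051 (adjusted p = 0.116, limma). All 3 calls were lost without the trend in the variance (adjusted p = 0.0935 to 0.111, limma). BCR, at 142 ± 2.09 CPM, overlapped with EV (log2 fold change 0.07, adjusted p = 0.181, limma). GRB2 and GAB2 had log2 fold changes of -0.01 and -0.00, with intervals of -0.07 to 0.05 and -0.06 to 0.06. SHC1 (-0.06) and STAT5A (-0.03) did not pass, nor did CRK, at 5.30 ± 0.26 CPM (0.19, interval -0.04 to 0.42).

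The 2 knockouts share their EV libraries, so the difference between them was tested directly. Of the 10 genes 6 passed, 5 higher in HSP90α-KO and 1 lower, against 59.9% of all tested genes, 30.1% higher and 29.8% lower. None changed by more than 2-fold, against 12.7% of all, and 8 did not overlap, against 63.8% of all. GRB2 was 1.22-fold higher in HSP90α-KO than in HSP90β-KO (log2 difference 0.29 ± 0.03, adjusted p = 3.32e-09, limma). CRKL was 1.18-fold higher (0.24 ± 0.03, adjusted p = 1.33e-08, limma). GAB2 (0.19), ABL2 (0.17) and SHC1 (0.16) were also higher, with adjusted p of 4.44e-06, 0.000318 and 0.00298 (limma). These 5 differences passed under every setting tried. STAT5B was lower in HSP90α-KO (-0.11, adjusted p = 0.00144, limma), a call that median centring took to an adjusted p of 0.0534 (limma). BCR (0.05, interval -0.03 to 0.14), ABL1 (-0.06, interval -0.12 to -0.00), STAT5A (-0.05) and CRK (-0.01) did not pass after adjustment. Under quantile normalization ABL1 was at -0.16 and STAT5A at -0.12, and both passed (adjusted p = 4.3e-05 and 0.000492, limma). ABL1 also passed with voom on recovered reads (-0.065, adjusted p = 0.0477, limma) and without HSP90α-KO replicate 1 (-0.084, adjusted p = 0.0234, limma). BCR passed under median centring (0.096, adjusted p = 0.0428, limma) and without HSP90α-KO replicate 3 (0.12, adjusted p = 0.00822, limma).

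In PUHr against parental cells, 6 of the 10 genes passed, 4 higher and 2 lower, against 51.4% of all tested genes, 25.6% higher and 25.8% lower. None changed by more than 2-fold, against 10.1% of all, and 6 did not overlap, against 58.5% of all. CRKL showed the largest difference of any of the genes in any comparison. It was at 684, 682 and 688 CPM in the parental libraries and at 884, 904 and 888 CPM in PUHr, a gap many times the spread within either group. The fold was 1.30 (log2 fold change 0.38 ± 0.02 SE, adjusted p = 5.17e-10, limma), larger than the difference of 69.9% of tested genes. GAB2 was at 125, 125 and 127 CPM in parental and at 147, 140.0 and 145 CPM in PUHr (log2 fold change 0.20 ± 0.03, adjusted p = 3.85e-05, limma).

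SHC1 and GRB2, the adaptors on the route to SOS and RAS, were lower in PUHr. SHC1 was at 88.8, 83.5 and 86.5 CPM in parental and at 72.1, 71.0 and 71.3 CPM in PUHr, and fell by 0.27 on the log2 scale (SE 0.03, adjusted p = 7.33e-06, limma). GRB2 was at 202, 206 and 203 CPM in parental and at 189, 181 and 179.6 CPM in PUHr, and fell by 0.16 on the log2 scale (SE 0.03, adjusted p = 0.000217, limma). Neither gene overlapped between groups, and both calls, like those of CRKL and GAB2, passed under every setting tried.

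The fusion's parent genes rose slightly in PUHr. BCR was at 163.9, 163.8 and 156 CPM in parental and at 170.2, 179 and 173 CPM in PUHr (log2 fold change 0.11 ± 0.03, adjusted p = 0.0062, limma). ABL1 was at 391, 382 and 368 CPM in parental and at 393, 402 and 407 CPM in PUHr, with the highest parental library just below the lowest PUHr library (0.08 ± 0.03, adjusted p = 0.0238, limma). Centring every library on its median gene took both below the threshold, with log2 fold changes of 0.06 for BCR and 0.03 for ABL1 (adjusted p = 0.0765 and 0.399, limma). Both calls were also lost with no filter on low values and without the trend in the variance (for the latter, adjusted p = 0.0711 and 0.160, limma). That of ABL1 was lost as well without parental replicate 2 or 3 or PUHr replicate 3 (adjusted p = 0.0612 to 0.136, limma). ABL2 (-0.01, interval -0.08 to 0.06), STAT5A (-0.03, interval -0.09 to 0.04) and STAT5B (0.02, interval -0.04 to 0.08) overlapped between groups and did not pass. Under quantile normalization STAT5B was at 0.072 and passed (adjusted p = 0.0458, limma). CRK was at 4.74, 5.29 and 4.96 CPM in parental and at 4.06, 6.06 and 5.74 CPM in PUHr, with an interval of -0.24 to 0.37 for the log2 fold change.

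Reads on ABL1 per read on BCR kept a narrow range over the 5 groups. The mean was 2.30 ± 0.068 in EV, 2.15 ± 0.095 in HSP90α-KO, 2.33 ± 0.046 in HSP90β-KO, 2.36 ± 0.029 in parental and 2.30 ± 0.055 in PUHr (SD, n = 3 each). Per kb of all annotated exons, ABL1 stood at 4.03 times BCR in EV. The count per gene adds fusion, normal BCR, normal ABL1 and any reciprocal transcript, so it gives no level of the fusion itself.

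The 2 control groups, which come from different experiments, stood apart in GAB2 and STAT5A. Recomputed as a share of the reads (RPM) over the 17769 genes in both tables, GAB2 was at 274 ± 6.82 in EV and 123 ± 2.25 in parental cells, 2.22-fold higher in EV. STAT5A was at 247 ± 7.88 in EV and 431 ± 8.45 in parental cells, 1.74-fold higher in the latter. CRKL was 1.32-fold higher in parental cells, STAT5B 1.27-fold higher in EV, BCR 1.17-fold and ABL1 1.20-fold higher in parental cells. The tables were normalized separately, so these levels were not tested.

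The genes around BCR, ABL1 and CRKL were read for neighbours that move with them. CRKL lies 2.23 Mb from BCR towards the centromere on chromosome 22 (CRKL, chr22:20917407-20953747; BCR, chr22:23179704-23318037), and its neighbourhood was added after its values were seen. In PUHr, 22 of 30 tested protein-coding genes within 2 Mb of CRKL on the centromeric side passed as higher and 4 as lower, with a median log2 fold change of 0.23, while 25.6% of all tested genes passed as higher and 25.8% as lower. On its telomeric side 9 of 19 were higher and 2 lower, with a median of 0.20. The median of all tested genes was 0.00. SNAP29, a membrane fusion protein and the nearest gene towards the centromere, was at 211 CPM in parental and 302 CPM in PUHr cells (log2 fold change 0.51 ± 0.02, adjusted p = 1.97e-10, limma). PI4KA, a lipid kinase gene, was at 584 and 799 CPM (0.45 ± 0.03, adjusted p = 1.54e-09, limma). SCARF2 rose the most in this window, from 2.39 to 9.55 CPM (1.96, adjusted p = 1.49e-07, limma).

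The windows around BCR and ABL1 were read in the same way. On the centromeric side of BCR, the side that the fusion keeps, 6 of 14 tested genes passed as higher and 2 as lower (median 0.22), many of them also neighbours of CRKL. On its telomeric side 2 of 16 were higher and 4 lower (median 0.02). For ABL1 it was 12 higher and 5 lower of 27 on the centromeric side (median 0.07), and 9 higher and 2 lower of 16 on the telomeric side, which the fusion keeps (median 0.16). Over all tested genes 25.6% were higher and 25.8% lower, with a median of 0.00. The most abundant of the near neighbours on the sides that the fusion keeps had log2 fold changes near 0 and did not pass. PRAME, a tumor antigen gene and the nearest tested one on the centromeric side of BCR, was at 471 CPM in parental and 477 CPM in PUHr (0.02), and NUP214, a nuclear pore gene that lies beyond the nearest 3 tested genes of ABL1 in the resistance table, at 879 and 889 CPM (0.02). The other near neighbours of BCR were ZNF280A (-0.79, adjusted p = 0.0396, limma, near 1 CPM) and ZNF280B (0.23) towards the centromere and DRICH1 (-0.04), RGL4 (-0.54) and ZNF70 (0.20) towards the telomere, of which the last 4 did not pass. Beside ABL1, EXOSC2 (-0.11), FUBP3 (0.17) and ASS1 (-0.29) passed on the centromeric side, and on the telomeric side LAMC3 (1.98, from 0.241 to 0.903 CPM) and AIF1L (0.39) passed and QRFP (0.38) did not. In HSP90β-KO, 10 of 30 tested genes on the centromeric side of CRKL passed as higher and 1 as lower, against 17.2% of all each way. On the centromeric side of ABL1 it was 6 and 1 of 28. In HSP90α-KO these counts were 9 higher and 11 lower for CRKL and 9 and 9 for ABL1, against 27.5% and 26.6%. In the knockouts every median of these windows against EV lay between -0.03 and 0.09. There PRAME had log2 fold changes of -0.02 in HSP90α-KO and 0.05 in HSP90β-KO, and NUP214 of -0.02 and -0.00. Of the nearest 3 tested on each side, ZNF280B (-0.47) and FUBP3 (-0.20) passed in HSP90α-KO. DRICH1 (-0.83) and EXOSC2 (0.12) passed in HSP90β-KO. ASS1, named above for PUHr, is the next tested gene here and passed in both (-0.40 and -0.36). The part of copy number in any of these values was not tested.

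A few low transcripts in these windows changed by more than 2-fold. In HSP90α-KO, GGT5, a gamma-glutamyltransferase gene on the telomeric side of BCR, rose from 3.96 to 74.6 CPM (log2 fold change 4.24) and SUSD2 from 0.824 to 7.12 CPM (3.11). IER5L had 10 to 18 reads in EV and 20 to 34 in HSP90α-KO (1.03), and PLPP7 17 to 22 and 2 to 6 (-1.77). No neighbour changed that much in HSP90β-KO. Between the knockouts GGT5 (4.80), SUSD2 (3.75), YPEL1 (1.73), SPOUT1 (-1.06) and PLPP7 (-1.80) differed by more than 2-fold. In PUHr, PLPP7 (2.13), LAMC3 (1.98), IER5L (1.66), AK8 (1.58) and SPACA9 (1.14) rose near ABL1, and GGT5 (-3.25) and CCDC116 (-1.38) fell near BCR. These 7 genes had at most 155 reads in any library of the resistance table. GGT5 had 0 to 7 reads in PUHr and 23 to 39 in parental libraries, and LAMC3 had 13 to 27 and 1 to 7, so the size of both differences is poorly determined.

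Larger differences appeared in the wider pathway, as the plot by list shows. The counts of each list below stand against the shares of all tested genes that passed, which were 27.5% higher and 26.6% lower in HSP90α-KO, 17.2% in each direction in HSP90β-KO, 30.1% higher and 29.8% lower between the knockouts, and 25.6% higher and 25.8% lower in PUHr. The median log2 fold change of all tested genes was -0.01, 0.00, -0.01 and 0.00. Among 22 docking and exchange proteins, which bind the fusion or its adaptors, 20 were tested in HSP90α-KO, where 11 were higher and 1 lower, with a median log2 fold change of 0.15 against -0.01 for all genes. INPP5D, the SH2-containing inositol phosphatase SHIP1, rose from 8.05 ± 0.28 to 46.0 ± 3.47 CPM (log2 fold change 2.51 ± 0.08, adjusted p = 8.12e-20, limma). CBLB, a ubiquitin ligase, rose from 8.50 to 17.8 CPM (1.07), and DOK2, an inhibitory docking protein, was at 0.455 and 0.921 CPM (1.15), on 4 to 18 reads and with overlapping libraries. In HSP90β-KO 3 were higher and 4 lower, led by NCK2 (-0.91) and INPP5D (-0.79). Between the knockouts 12 were higher and 2 lower in HSP90α-KO, and INPP5D differed by 3.30 and the adaptor NCK2 by 1.40 on the log2 scale.

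In PUHr this list split, with 7 of 21 higher and 9 lower, against 25.6% and 25.8% of all tested genes, and a median of -0.02. VAV1, the exchange factor of RAC, fell from 37.5 ± 2.01 to 4.88 ± 0.28 CPM (log2 fold change -2.94 ± 0.07, adjusted p = 1.99e-13, limma). INPP5D fell from 9.18 to 1.59 CPM (-2.54) and DOK2 from 1.03 to 0.337 CPM (-1.62, at most 26 reads). NCK2 rose from 4.60 to 23.7 CPM (2.36) and RIN1, a RAS effector that activates ABL kinases, from 0.362 to 0.881 CPM (1.27, at most 22 reads).

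**Figure D3:**
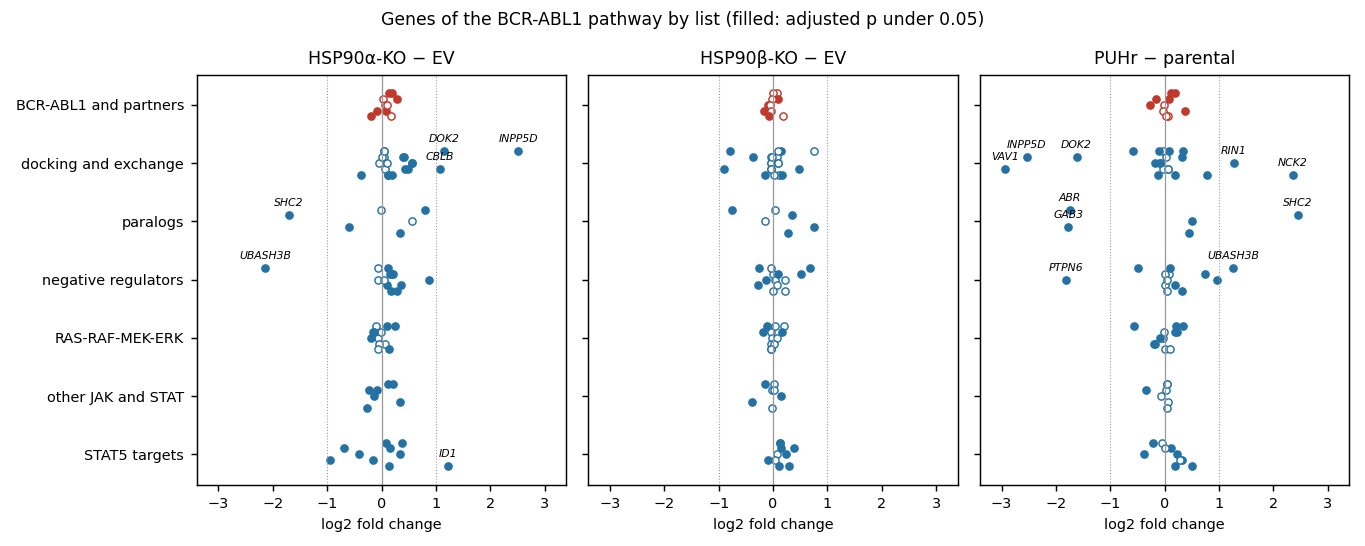
Log2 fold change of each tested gene (circles) of the 10 genes (red) and of 6 pathway lists (blue) in 3 comparisons; filled circles passed at an adjusted p under 0.05, dotted lines mark a 2-fold change, and genes beyond them that passed are named. The 10 genes lie between the dotted lines throughout, while INPP5D stands at 2.51 in HSP90α-KO and at -2.54 in PUHr.

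The paralogs of the 10 genes were few and moved widely. In HSP90α-KO 2 of 6 tested were higher and 2 lower, and SHC2 fell from 15.1 to 4.63 CPM (log2 fold change -1.71). In HSP90β-KO 3 were higher and 1 lower, with GAB1 at 0.76 and GRAP2, a GRB2-like adaptor, at -0.75. Between the knockouts SHC2 (-2.06) and GAB1 (-1.36) were lower and GRAP2 (1.55) higher in HSP90α-KO. All 5 tested passed in PUHr, 3 higher and 2 lower. SHC2 rose from 3.71 to 20.3 CPM (2.45), while GAB3 fell from 53.1 to 15.5 CPM (-1.77) and ABR, the paralog of BCR, from 16.6 to 4.95 CPM (-1.75).

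The list of 13 negative regulators of the kinase and of STAT signalling also held SET and CIP2A, which inhibit the phosphatase PP2A. SET passed as higher in both knockouts (0.19 and 0.09) and CIP2A as lower in HSP90β-KO (-0.14), and the counts below include them. Of the 13 genes, 9 were higher and 1 lower in HSP90α-KO (median 0.16) and 3 higher and 3 lower in HSP90β-KO (median 0.03). In PUHr 6 were higher and 2 lower (median 0.08). The shares of all tested genes were 27.5% and 26.6%, 17.2% each way, and 25.6% and 25.8%, with medians of -0.01, 0.00 and 0.00. UBASH3B, a tyrosine phosphatase also called STS-1, fell from 35.6 ± 1.22 to 8.05 ± 0.55 CPM in HSP90α-KO (log2 fold change -2.14, adjusted p = 4.22e-21, limma). It was at 57.0 CPM in HSP90β-KO (0.68), so that the knockouts differed by -2.83 (9 of the list higher and 3 lower in HSP90α-KO), and it rose from 51.6 to 123 CPM in PUHr (1.26). SOCS1 rose by 0.52 in HSP90β-KO. PTPN6, the phosphatase SHP-1, fell from 3.60 to 1.04 CPM in PUHr (-1.82).

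The RAS-RAF-MEK-ERK genes stayed within 2-fold. Of 12 tested, 3 were higher and 3 lower in HSP90α-KO, with ARAF at 0.24, 1 higher and 2 lower in HSP90β-KO, with BRAF at -0.19 and MAPK3 at 0.17, and 4 higher and 4 lower in PUHr, with ARAF at -0.57. Between the knockouts 5 were higher and 4 lower in HSP90α-KO, led by HRAS and MAPK3, both at -0.31. Of the 7 other JAK and STAT genes tested, 3 were higher and 4 lower in HSP90α-KO (STAT2 -0.27), 1 higher and 2 lower in HSP90β-KO (JAK1 -0.16), and 1, STAT6, lower in PUHr (-0.34). Between the knockouts 3 were higher and 4 lower in HSP90α-KO, with TYK2 at -0.28.

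The list of 11 known targets of STAT5 was not split into genes it activates and genes it represses. Its counts therefore give no direction of STAT5 activity. Of the 11 targets, 10 were tested. In HSP90α-KO all of these passed, 6 higher and 4 lower (median 0.11), while 54.2% of all tested genes passed, 27.5% higher and 26.6% lower. ID1 rose from 6.34 ± 0.27 to 14.8 ± 0.10 CPM (log2 fold change 1.23), while BCL6 (-0.95) and the cyclin gene CCND2 (-0.68) fell. In HSP90β-KO 7 were higher and 1 lower (median 0.13, with 17.2% of all genes in each direction), led by SOCS2 (0.38) and ID1 (0.29). In PUHr 5 were higher and 2 lower (median 0.16, with 25.6% and 25.8% of all genes), with ID1 at 0.50 and the kinase gene PIM1 at -0.38. Between the knockouts 3 were higher and 5 lower in HSP90α-KO, led by BCL6 (-0.98) and ID1 (0.94). CISH, a standard STAT5 target, had log2 fold changes of 0.08 and 0.13 in the knockouts, both passing, and -0.04 in PUHr, which did not pass.

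The genes whose levels followed BCR most closely over the 9 knockout libraries were MOSPD3, MRPS28 and DCAF15, with Pearson correlations of 0.963, 0.957 and 0.956 among 12341 genes. For ABL1 they were OXLD1, ALDH16A1 and DVL2 (0.965, 0.961 and 0.960). Over the 6 libraries of the resistance table BCR was followed by CDR2L, ELAVL1 and TEPSIN (0.996, 0.994 and 0.994) and ABL1 by CHMP6, ATP9B and ENSG00000287860 (0.991, 0.989 and 0.986) among 12274 genes. The libraries share their groups and the highest values out of so many genes are high by choice, so these are descriptions only.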

How the data were processed

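K562 RNA was sequenced in 15 libraries, single reads of 76 bases from a stranded mRNA kit. Per the labels and methods, the authors trimmed the reads, aligned them with STAR to GRCh38 (hg38), counted genes with featureCounts and normalized with edgeR. The deposited values of both tables are log2 CPM with a prior count. Rows without a gene identifier (30 and 114, at most 0.036% of a library's reads) were left out. Whole reads were recovered from the values (largest deviation 0.0014 reads). CPM printed here are the log2 values on the linear scale, prior included.

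Genes with log2 CPM of at least -1 in 3 libraries were tested on the log2 scale with limma 3.58.1 in R 4.3.3 (trended variance, no block), 17039 genes in 1 fit of the 3 knockout groups and 16503 in the other table, with Benjamini-Hochberg adjustment over all of them. "Passed" means an adjusted p under 0.05, "changed" an absolute log2 fold change above 1 as well. The procedure was tested on simulated data. Annotation is GENCODE 44. In each list the genes named are those changed, or otherwise the 2 that passed with the largest change. Of the neighbours the nearest 3 tested on each side of BCR and ABL1 and those changed are named. BCL6, CCND2, CISH, SNAP29, PI4KA and SCARF2 were named after their values were seen. A few genes that this rule names are not reported here. The members and lists were chosen with earlier results of these data known. Alternatives were another filter, pseudocount, scaling, variance model, voom on recovered reads, a replicate block and leaving out each library.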

Additional observations from a re-analysis of the deposited data

How the results depend on the processing

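The number of the 10 genes changed by more than 2-fold was 0 under all 22 alternatives in each knockout comparison and all 18 in PUHr. The number that passed fell from 6 to 3 in HSP90α-KO and from 4 to 1 in HSP90β-KO without the trend in the variance. The calls lost there were those of BCR, CRKL and STAT5A in HSP90α-KO and of ABL1, ABL2 and STAT5B in HSP90β-KO. In PUHr the same setting lost the calls of BCR and ABL1. Leaving out 1 library at a time gave 4 to 7 in HSP90α-KO, 1 to 4 in HSP90β-KO, 6 to 7 between the knockouts and 5 to 6 in PUHr, and 0 to 0 changed by more than 2-fold. The genes that passed under every setting numbered 3, 1, 5 and 4. Signs turned only for differences of at most 0.08 on the log2 scale, and the cause was not tested. Quantile normalization gave -0.062 for ABL1 and -0.0060 for CRKL in HSP90α-KO, -0.0038 for BCR between the knockouts and 0.062 for STAT5A in PUHr. Median centring gave 0.037 for CRK between the knockouts and -0.025 for STAT5B in PUHr. Leaving out 1 library at a time took GAB2 in HSP90β-KO from -0.0197 to 0.0194, CRK between the knockouts from -0.0480 to 0.0165, and in PUHr ABL2 from -0.0393 to 0.0073, CRK from -0.0480 to 0.241 and STAT5A from -0.0521 to 0.0106. Replicate numbers did not pair the libraries: deviations of libraries with the same number correlated at -0.048 to 0.045. With the replicate block, ABL2 in HSP90β-KO lost its call (log2 fold change -0.10, adjusted p = 0.060, limma), and the other members kept theirs. For CRK, 87 to 143 reads per library set the precision.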
